A study of Mus musculus with 4 samples.

Results

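Homeostatic microglia without activation transcripts were examined as a class of single cells in the demyelinated mouse brain. A cell belonged to the class when its raw unique molecular identifiers (UMIs, tags that count each captured RNA molecule once) met a rule with 3 clauses. The summed UMIs of P2ry12, Tmem119 and Siglech had to reach 4, no UMI of Lpl, Spp1, Itgax, Cst7 or Mrc1 was allowed, and fewer than 2 of the stress genes Gdf15, Slc7a11, Srxn1 and Osgin1 could be detected. Only cells in which 200 to 6000 genes were detected, with no more than 10% of UMIs mitochondrial, were considered. The rule found 2938 cells among 40869 that passed these limits, or 7.19%.

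Each of the 4 libraries held cells of 1 mouse, sorted from the brain as CD45+ CD11b+. The 2 PRMT1FL mice, which the labels call wild type, carried floxed alleles of Prmt1, the gene of the main arginine methyltransferase, without a recombinase. The 2 PRMT1Cx3cr1-KO mice carried the same alleles and a tamoxifen-inducible recombinase, CreERT, in the Cx3cr1 locus, so that the genotypes also differed at Cx3cr1 itself. All 4 mice were injected with tamoxifen on a C57BL/6 background and received cuprizone, a copper chelator that strips myelin, at 0.2% of the diet for 5 wk. The labels give 5 to 6 wk as the age at the diet, whereas the study's methods give that age for tamoxifen and start the diet 2 wk later. Sex was not given for the libraries; Xist was at 0 to 4.79 UMIs per 1000000 UMIs (CPM) and the Y-linked Ddx3y at 70.3 to 90.1 CPM in the class in every mouse. The libraries held 91306165 and 76943248 UMIs in PRMT1FL mice 1 and 2, against 85874289 and 99559644 in PRMT1Cx3cr1-KO mice 1 and 2. Any pair of libraries shared 31 to 46 barcodes among passing cells.

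Microglia are the resident macrophages of the brain parenchyma. At rest they depend on CSF1 receptor and TGF-β signalling, and keep a homeostatic programme that includes the purinergic receptor P2ry12, the membrane protein Tmem119 and the lectin Siglech. When myelin is damaged many of them lower these genes and raise lipid-handling and lysosomal genes such as Apoe, Lpl and Spp1, which are known as the disease-associated or activated programme.

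The class made up 7.30% and 8.67% of the passing cells in PRMT1FL mice 1 and 2, which is 834 and 708 cells. It made up 7.53% and 5.64% in PRMT1Cx3cr1-KO mice 1 and 2, which is 781 and 615 cells. The exact Clopper-Pearson 95% intervals, which cover counting error only, were 6.83% to 7.79%, 8.06% to 9.30%, 7.03% to 8.06% and 5.22% to 6.09% in the same order. The genotypes overlapped. With a marker sum of 6 or more they did not, at 6.58% and 7.99% against 6.43% and 4.67% (exact permutation p = 0.33). Under the rule itself the mean share was 7.98% ± 0.967 (SD, n = 2) in PRMT1FL mice and 6.59% ± 1.34 (SD, n = 2) in PRMT1Cx3cr1-KO mice. An exact two-sided permutation test over mice gave p = 0.667, and with 2 mice against 2 this test cannot go below 0.33.

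The share depended on how deeply a cell was read, since both clauses count UMIs. In the plot of shares by depth it peaked between 2000 and 3000 UMIs in every mouse. At 2000 to 2500 UMIs the class took 31.8% and 35.8% of the cells in PRMT1FL mice, against 33.3% and 29.0% in PRMT1Cx3cr1-KO mice. Above 10000 UMIs it took at most 0.0842%. When each cell was thinned to 3000 UMIs before the rule, with shallower cells left out, the shares were 5.15% and 7.60% against 4.94% and 4.20%, so that the genotypes no longer overlapped (exact permutation p = 0.33). After standardisation to 1 common depth distribution they were 6.42% and 9.44% against 7.07% and 6.28%, and overlapped again. The thinning left out 274 to 466 member cells per mouse.

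**Figure D1:**
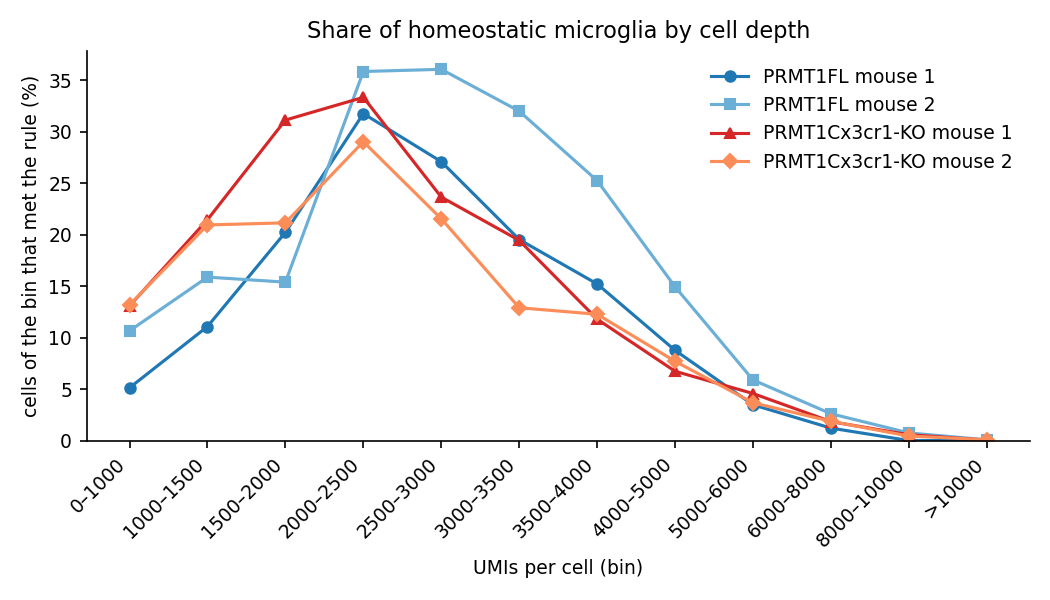
Share of passing cells that met the rule (vertical axis, %) in 12 bins of UMIs per cell (horizontal axis), 1 line per mouse. The share peaks between 2000 and 3000 UMIs in all 4 mice and is under 1% above 8000.

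Marker-positive cells are those that reached 4 marker UMIs, whatever their other genes. Of them, 11.6% and 12.6% were in the class in PRMT1FL mice, against 11.2% and 7.69% in PRMT1Cx3cr1-KO mice, without overlap. Nearly all the others, 24768 cells, were kept out because they carried an activation UMI, and these cells are called the activated class below. The stress clause removed no cell in PRMT1FL mice, against 21 and 18 cells in PRMT1Cx3cr1-KO mice. Just inside the marker threshold lay 192 cells with a sum of 4, and just outside it 195 cells with a sum of 3 that met the other clauses. Their median depths were 1449.5 and 1143 UMIs.

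The members were shallow cells. Their median depth was 2876 and 3328.5 UMIs in PRMT1FL mice, against 2683 and 2828 in PRMT1Cx3cr1-KO mice. It was 9305, 10055, 8921 and 9376.5 in the activated class of the same mice. Cells under 1500 UMIs were 6.59% and 8.62% of the members in PRMT1FL mice but 16.6% and 19.3% in PRMT1Cx3cr1-KO mice. Depth thus moved with the genotype, and the counts of genes from members of 3000 to 10000 UMIs are given beside the genotype results. The median sum of the 3 markers was 13 and 15 UMIs in PRMT1FL members and 11 and 11 in PRMT1Cx3cr1-KO members. Cells marked as likely doublets were 0.959%, 0.989%, 0.512% and 0.488% of the members and 9.83% to 13.995% of the activated class.

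A count of 0 in so shallow a cell can be a missed molecule. To measure this, the UMIs of every cell were divided at random into 2 equal parts, the rule was applied to one part, and the 5 activation genes were read in the other. An activation UMI was present there in 28.3% and 22.6% of the chosen cells in PRMT1FL mice and in 25.2% and 31.1% in PRMT1Cx3cr1-KO mice. The mean was 26.8% ± 3.70 (SD, n = 4 mice). Among marker-positive cells that showed an activation UMI in the first part it was 94.7% ± 1.03 (SD, n = 4 mice). The unread part of the latter was deeper, with medians of 5467 to 6349 UMIs against 1561 to 1792.5. On the CPM scale, Lpl in the unread part was at 67.9, 68.0, 101 and 122 CPM in the chosen cells and at 723 to 922 CPM in the others. P2ry12 there was at 1977, 2084, 2626 and 2739.9 CPM in the chosen cells against 442 to 606 CPM. Cells rich in astrocyte genes, taken as background, had an activation UMI in their unread part in 32.4% and 22.4% of 111 and 85 cells in PRMT1FL mice and in 30.4% and 30% of 23 and 10 cells in the knockout mice, at medians of 955 to 1734 UMIs. The share in the chosen cells was thus below this background in 1 mouse of each genotype and slightly above it in the other. The background of the knockout mice rests on few cells. By level they differed: Lpl in the unread part of the astrocyte-rich cells was at 286, 356, 270 and 395 CPM. Spp1 there was at 1225, 519, 1889 and 4218 CPM, against 48.7, 21.1, 34.1 and 50.8 CPM in the chosen cells. Cst7 was also higher there in every mouse, while Itgax and Mrc1 were not. The astrocyte-rich cells were not required to lack activation UMIs in the first part. No expression in the chosen cells is read from these UMIs.

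Members were next compared with all other passing cells of the same mouse, weighted to the same distribution of depth. Because the rule chose the cells on their own RNA, these ratios are a description and no test was made. Genes outside the rule with at least 20 CPM on one side numbered 6311. Of these, 301 (4.77%) were higher in the members in all 4 mice and over 2-fold on average, and 222 (3.52%) were lower by the same measure. The median log2 ratio of CPM + 1 over all 6311 genes was 0.30, and ratios are best read against that value.

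Homeostatic genes that the rule had not used were high in the members. Of 29 such genes, 19 were over 2-fold higher and 27 were higher in all 4 mice, against 58.2% of all genes higher in all 4 mice. Their median log2 ratio by mouse was 1.11, 1.09, 1.07 and 1.10, with the PRMT1FL mice given first here and in every list of 4 values. Sall1, the transcription factor that holds microglial identity, was at 225, 215, 229.7 and 236 CPM in members and 91.2, 88.7, 103 and 89.0 CPM in other cells. Crybb1, a crystallin used as a microglial marker, was at 381, 347, 595 and 541 CPM against 87.0, 79.9, 132 and 126 CPM, a mean log2 ratio of 2.12. Slc2a5, the fructose transporter, was at 217, 235, 151 and 169 CPM against 56.6, 58.4, 51.3 and 48.9 CPM. For each of these genes the lowest member value exceeded the highest value of other cells. Fcrls was an exception in the list, at 1399, 1520.5, 1819 and 1981 CPM against 1474, 1544, 1759 and 2195 CPM, a mean log2 ratio of -0.05.

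The 10 genes outside the rule with the largest ratios were Il7r, Crybb1, Kcnk12, Upk1b, Khdrbs3, Gp9, Cass4, Slc2a5, Bank1 and Camk2n1, at mean log2 ratios of 2.14 down to 1.76. Il7r, which encodes the receptor of interleukin 7, led them, with 57.9, 62.0, 87.9 and 103.8 CPM in members and 13.1, 11.8, 19.1 and 23.9 CPM in other cells. Lineage factors and TGF-β pathway genes formed a further list of 20. All 20 were higher in the members in every mouse, against 58.2% of all genes, and 2 of them over 2-fold, against 4.77% of all genes. The mean of the mouse medians was 0.66. Zfhx3, a homeobox transcription factor, was at 477, 500.4, 527 and 525 CPM against 173, 179, 182 and 203 CPM. Spi1, the myeloid master regulator PU.1, moved little from the overall shift, at 418, 396, 409 and 377 CPM against 305, 315, 310.1 and 303 CPM.

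Immediate early genes were also high. All 19 on the list were higher in members in every mouse and 12 were over 2-fold higher, beside the same 58.2% and 4.77% of all genes, with a mean of the mouse medians of 1.10. Jun was at 5371, 4099, 4783 and 3808 CPM in members and 1893, 1401, 1719 and 1213 CPM in other cells. Klf2, a Krüppel-like factor, was at 1761, 1772, 1088 and 631 CPM against 692, 650.5, 491 and 362 CPM. Such genes can be induced while tissue is dissociated, and the part of this in the ratios was not tested.

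Activation genes outside the rule were low. Of 26 with enough counts, 25 were lower in all 4 mice, against 19.4% of all genes, and 17 of these were over 2-fold lower on average, against 3.52% of all genes. The median log2 ratio was -1.98, -2.04, -1.69 and -1.64 in the order of mice given above. Apoe, the lipid carrier that leads the activated programme, was at 7445, 5894, 11544 and 14273 CPM in members and 37780.5, 32514, 39690.2 and 37932 CPM in other cells. Lgals3, a lectin of phagocytic cells, was at 12.6, 8.22, 20.8 and 39.9 CPM against 244, 249.97, 202 and 228 CPM. Ch25h, which hydroxylates cholesterol, was at 3.94, 1.23, 3.09 and 4.26 CPM against 69.8, 78.2, 62.6 and 109.9 CPM. Apoe was thus abundant in members in absolute terms, while the highest member value stayed below the lowest value of other cells for all 3 genes. Trem2, the lipid receptor needed for activation, differed little, at 1701, 1930.05, 1557 and 1259 CPM against 1969, 2304, 1935 and 1583 CPM. Cd83 was the gene of the list that was higher, at 1031, 862, 1318 and 789.7 CPM against 713, 640.5, 883 and 442 CPM.

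**Figure D2:**
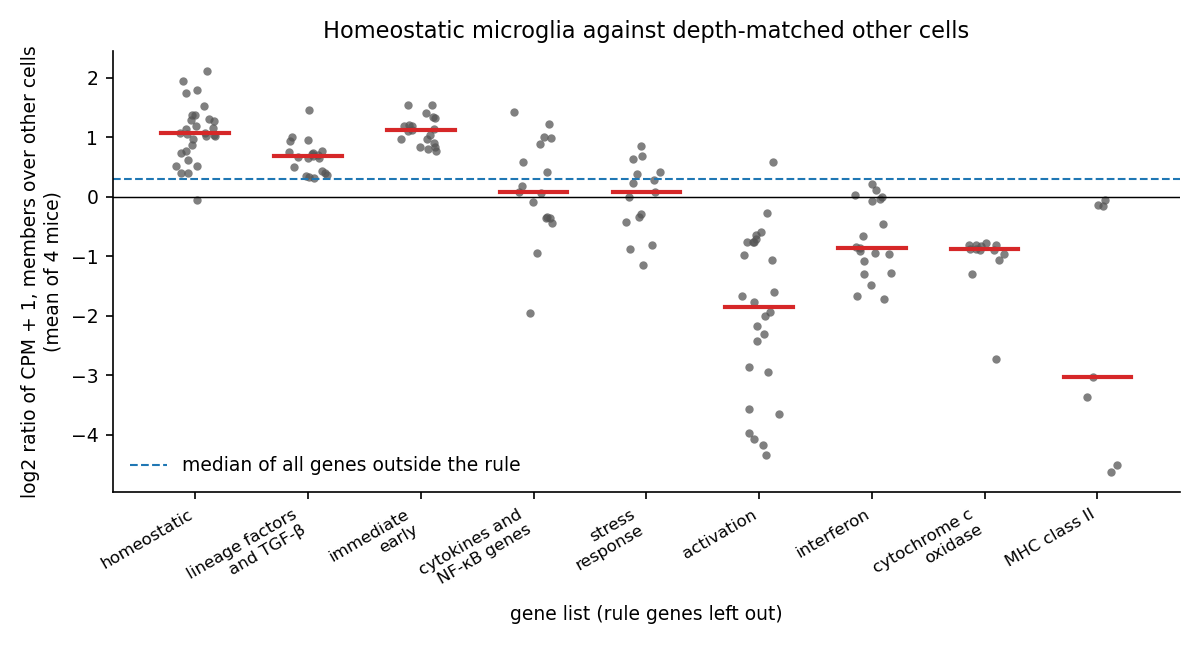
Log2 ratio of CPM + 1, members over other cells weighted to the same depth, for each gene of 9 lists (points, mean of 4 mice; red bars, median over genes). Homeostatic, lineage and immediate early genes lie above the median of all genes (dashed line, 0.30), and activation, interferon, cytochrome c oxidase and MHC class II genes mostly lie below 0.

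Other programmes were low in the members as well. Over all genes 19.4% were lower in all 4 mice and 3.52% were also over 2-fold lower, and the counts below stand beside those shares. MHC class II genes, which present antigen, had a mean of the mouse medians of -2.85 over 7 genes, with 4 of them lower in all 4 mice and over 2-fold lower on average. The same mean was -1.96 without the weighting for depth and -1.37 against the activated class. Cd74, the invariant chain of MHC class II, was at 237, 241, 57.0 and 27.1 CPM in members and 1922, 1957, 693 and 410.0 CPM in other cells. The remaining 3 genes of the list differed less than 2-fold, among them H2-DMa at 222, 268, 242 and 218 CPM against 253, 269.8, 256 and 277 CPM. Of 19 interferon-response genes 12 were lower in all 4 mice and 6 were over 2-fold lower. All 13 genes of the cytochrome c oxidase list were lower in all 4 mice, 3 of them over 2-fold. The list holds subunits of the last complex of the respiratory chain, and also Ndufa1 and Uqcc2, which belong to other parts of that chain. Ribosomal protein genes took 11.9%, 11.5%, 11.7% and 10.6% of the UMIs of members and 20.7%, 20.1%, 19.8% and 18.4% of the UMIs of the activated class. These shares were not weighted for depth, and the activated cells were deeper.

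Markers of neutrophils, border macrophages, neurons, lymphocytes and erythroid cells were low in the members, while astrocyte and oligodendrocyte genes were measurable. Neutrophil genes summed to 2.36, 4.11, 0.442 and 0 CPM over 5 genes, with S100a9 the most abundant and Retnlg, Ly6g and Camp at 0, against 881 and 2814 CPM in other cells of the PRMT1FL mice and 1.69 and 8.68 CPM in those of the PRMT1Cx3cr1-KO mice. Without the weighting for depth the sums in other cells were 418 and 1383 CPM, against 0.684 and 85.7 CPM. Border macrophage genes summed to 3.15, 4.52, 6.18 and 26.6 CPM over 6 genes, with Ms4a7 the most abundant and Cd163 and Lyve1 at 0. The defining markers of both types were thus at or near 0. Monocyte genes summed to 3.54, 13.97, 9.28 and 11.2 CPM, with Ly6c2 at 0. Endothelial genes summed to 12.2, 9.86, 11.9 and 12.2 CPM, with Cldn5 at 0. Neuronal genes summed to 0.787, 0.822, 0.883 and 3.19 CPM. Lymphocyte genes were at 0 apart from 1.06 CPM in PRMT1Cx3cr1-KO mouse 2, and erythroid genes at 0 apart from 1.57 CPM in PRMT1FL mouse 1. Astrocyte genes summed to 179, 243, 145 and 127 CPM, most of it Slc1a3, a glutamate transporter, against 362, 469, 126.04 and 84.6 CPM in other cells. Oligodendrocyte genes summed to 57.1, 356, 57.0 and 31.4 CPM against 110.2, 77.5, 55.1 and 33.8 CPM. PRMT1FL mouse 2 thus held more oligodendrocyte RNA in its members than in its other cells. After thinning to 3000 UMIs its sums were 157 CPM in members and 78.9 CPM in other cells. In that mouse 1 member (0.141%) had 3 or more oligodendrocyte genes. The order of the astrocyte sums depended on the weighting: without it other cells were at 115, 110.01, 63.8 and 44.4 CPM, below the members in all 4 mice. The part of these transcripts in the results was not tested.

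Against the activated class alone, again at equal depth, the contrast was smaller. Of 6239 genes, 32 (0.513%) were higher in members in all 4 mice and over 2-fold on average, and 107 (1.72%) were lower by the same measure. Without the condition on size, 49.0% were higher and 16.8% lower in all 4 mice. The 10 highest were Khdrbs3, Egr1, Crybb1, Cass4, Camk2n1, Cebpd, Tle3, Il1a, Gbp7 and Bank1, at mean log2 ratios of 1.33 to 1.11. The 10 lowest were Ch25h, Fn1, Cspg4, Baiap2l2, Ctla2a, Fabp3, Pf4, Cxcl14, Gpnmb and Fabp5, at -3.99 to -2.78. The homeostatic list had a mean of the mouse medians of 0.56 here and the activation list of -1.36. Fabp5, a fatty acid binding protein, was at 24.8, 27.9, 26.5 and 38.8 CPM in members and 175, 189.7, 199 and 269 CPM in activated cells of the same depth.

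The genotypes were then compared within the class, on UMIs summed over the member cells of each mouse. The sums were 2541055 and 2434133 UMIs in PRMT1FL mice, against 2263868 and 1879087 in PRMT1Cx3cr1-KO mice. The 2 mice of a genotype are the replicates. Prmt1 (ENSMUSG00000109324; mm10, chromosome 7, 44975989 to 44986568) was at 86.6 and 76.4 CPM in PRMT1FL mice, against at 61.4 and 40.4 CPM in PRMT1Cx3cr1-KO mice. It was lower in both knockout mice, with a log2 fold change of -0.67 (SE 0.17) and an adjusted p of 0.0170 by edgeR's quasi-likelihood method (Benjamini-Hochberg adjustment). Without PRMT1Cx3cr1-KO mouse 2 the change was -0.39 and the adjusted p 0.189, and DESeq2 gave an adjusted p of 0.206. The reads count 3′ ends, and the position of the floxed exons is not given in the sources used here, so that this level is not a direct measure of deletion. Fewer cells with the transcript and less of it per cell cannot be told apart in such sums. In the activated class Prmt1 was at 92.8 and 84.9 against 71.0 and 72.6 CPM, and the change did not differ between the classes beyond error (difference -0.27, SE 0.16, adjusted p = 0.471, edgeR).

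Of 9884 genes tested in the members, 781 (7.9%) differed between the genotypes at an adjusted p under 0.05 in edgeR. Of these, 428 were higher and 353 lower in PRMT1Cx3cr1-KO mice, and 281 differed over 2-fold, 157 higher and 124 lower. The values of the genotypes did not overlap for any of the 781, as for 51.8% of all genes tested. DESeq2 called 223 genes, 146 higher and 77 lower, all of them among the 781. Members of 3000 to 10000 UMIs alone gave 310 calls, 303 of them shared, and all but 1 of the 749 shared genes tested kept their direction. Leaving out PRMT1FL mouse 2 gave 507.

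Some inflammatory regulators rose in the members of PRMT1Cx3cr1-KO mice. Of 18 cytokine, chemokine and NF-κB pathway genes tested, 8 were higher in PRMT1Cx3cr1-KO members, none was lower and 10 did not pass, against 4.33% of all genes higher. The median log2 fold change was 0.61 over the list and near 0 over all genes. Tnfaip2 (ENSMUSG00000021281; mm10, chromosome 12, 111442469 to 111455018), a gene induced by tumour necrosis factor, was at 43.7 and 32.9 CPM in PRMT1FL mice, against at 439 and 489.6 CPM in PRMT1Cx3cr1-KO mice. The log2 fold change was 3.58 (SE 0.14, adjusted p = 1.33e-11, edgeR). Tnf, the cytokine itself, was at 208 and 212 CPM against 1019 and 739 CPM, a log2 fold change of 2.06 (SE 0.14, adjusted p = 3.76e-08, edgeR). Both knockout mice were well above both PRMT1FL mice for each gene.

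Cxcl2, a chemokine that draws neutrophils, was at 17.7 and 5.75 CPM in PRMT1FL members and at 124 and 209 CPM in PRMT1Cx3cr1-KO members (log2 fold change 3.78, SE 0.28, adjusted p = 1.63e-07, edgeR). Nfkbia, Nfkbiz and Tnfaip3, which restrain or modulate NF-κB, rose by log2 0.78, 0.76 and 1.02, and the receptors Cd14 and Tlr2 by 0.88 and 0.68. Il1b, Il1a, Ccl3 and Ccl4 were among the genes that did not pass, and the genotypes overlapped for each. Il1b was at 425 and 249 CPM against 847 and 359 CPM (adjusted p = 0.0625, edgeR), and Ccl3 at 898 and 673 against 1263 and 750.4 CPM. Ccl4, the most abundant gene of the list, was at 2635 and 2658 CPM against 4404 and 2379 CPM. Nfkbiz lost its call in DESeq2 and in members of 3000 to 10000 UMIs.

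As these genes are known targets of NF-κB, the 250 bases before their RefSeq start sites were searched on both strands for the NF-κB consensus motif. The promoter table held 6 of the 8 genes that rose, and 5 of the 6 had a match, against 8.23% of 27025 genes in all. Of 13 genes of the whole list in the table, 8 had one, so a match was also common among genes that did not pass. The 3 promoters below belong to the gene with the smallest p of the list, the chemokine and the inhibitor. They are written 5′ to 3′ on the gene's strand (GRCm38.p6, RefSeq), with matches in capitals.
Tnfaip2, chr12:111442411-111442660, plus strand: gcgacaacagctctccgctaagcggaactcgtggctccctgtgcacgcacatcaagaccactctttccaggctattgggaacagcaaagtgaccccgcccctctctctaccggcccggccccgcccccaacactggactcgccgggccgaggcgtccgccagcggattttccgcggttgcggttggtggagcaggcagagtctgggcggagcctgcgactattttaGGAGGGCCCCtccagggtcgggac
Cxcl2, chr5:90903649-90903898, plus strand: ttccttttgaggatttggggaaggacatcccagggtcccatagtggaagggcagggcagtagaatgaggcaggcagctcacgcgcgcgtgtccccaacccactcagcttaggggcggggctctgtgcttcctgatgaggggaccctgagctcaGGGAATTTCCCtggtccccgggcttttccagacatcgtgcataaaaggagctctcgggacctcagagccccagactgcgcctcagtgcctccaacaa
Nfkbia, chr12:55492648-55492897, minus strand: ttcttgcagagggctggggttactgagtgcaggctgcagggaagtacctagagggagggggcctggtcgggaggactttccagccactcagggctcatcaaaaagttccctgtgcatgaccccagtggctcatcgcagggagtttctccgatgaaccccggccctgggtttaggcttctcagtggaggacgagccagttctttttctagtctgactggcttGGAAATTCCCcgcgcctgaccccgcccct
The first matched base lay 24, 97 and 29 bases before the RefSeq start site. In GENCODE the Tnfaip2 gene starts at 111442469, inside the window shown, so its match lies after that start. The capitals of Cxcl2 hold 2 overlapping matches. Tnf had no match in this window, which says only that these letters are absent there. A match is a description of sequence and not of binding.

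The stress response list holds genes of the oxidative stress response and of the integrated stress response. Of 17 tested, 11 were higher in PRMT1Cx3cr1-KO members, none was lower and 6 did not pass, against 4.33% of all genes higher and 3.57% lower, with a median log2 fold change of 0.84. The 6 included Atf4, Ddit3 and Sesn2 of the integrated stress response, with adjusted p of 0.348, 0.868 and 0.165 (edgeR). They also included Gclc of the oxidative stress response, at 51.6 and 56.3 CPM in PRMT1FL members and 51.7 and 66.5 CPM in PRMT1Cx3cr1-KO members (adjusted p = 0.726, edgeR). Asns and Nupr1, near the threshold, lost their calls in DESeq2. Gsr, which recycles glutathione, was at 10.2 and 9.45 CPM in PRMT1FL members and at 41.5 and 46.8 CPM in PRMT1Cx3cr1-KO members (log2 fold change 2.15, SE 0.21, adjusted p = 3.34e-06, edgeR). Gclm, a subunit of the ligase that makes the precursor of glutathione, was at 25.97 and 26.3 against 84.8 and 119 CPM. Txnrd1, thioredoxin reductase, was at 22.4 and 25.1 against 67.1 and 91.0 CPM. Hmox1, heme oxygenase, was at 70.4 and 83.8 against 116 and 164 CPM. The groups did not overlap for Gsr, Gclm, Txnrd1 or Hmox1, as for 51.8% of all genes tested. Of the stress genes in the rule, which were limited but not excluded, Osgin1 was at 1.57 and 3.70 against 41.1 and 32.5 CPM and Gdf15 at 16.9 and 27.1 against 72.9 and 66.5 CPM, given without a test.

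Of 23 activation genes outside the rule, 9 were higher in the members of PRMT1Cx3cr1-KO mice, 1 was lower and 13 did not pass, against 4.33% of all genes higher and 3.57% lower. The median log2 fold change was 0.20. Trem2, Tyrobp, Axl and Cd68 were among those that did not pass. Apoe was at 7445 and 5894 CPM in PRMT1FL members and at 11544 and 14273 CPM in PRMT1Cx3cr1-KO members (log2 fold change 0.94, SE 0.12, adjusted p = 4.42e-05, edgeR). Ctsd, a lysosomal protease, was at 7541 and 7066 against 10915 and 12337 CPM (log2 fold change 0.66, SE 0.10, adjusted p = 0.000222, edgeR). Igf1, a growth factor of activated microglia, was at 12.99 and 13.97 against 50.8 and 75.6 CPM (log2 fold change 2.20, SE 0.21, adjusted p = 3.05e-06, edgeR). Lgals3 and Lyz2 rose by log2 1.49 and 0.94. Ccl6 was the gene that fell, from 222 and 258 to 147 and 127 CPM. The calls of Cd9, Cd52 and Ctsz, near the threshold with log2 fold changes of 0.36 to 0.39, were lost without PRMT1FL mouse 1 and in DESeq2. Of 12 genes of complement, its receptors and Fc receptors, 2 were higher, 1 was lower and 9 did not pass. The complement receptors C5ar1 and C3ar1 rose by log2 1.72 and 0.71, and C1qc, a chain of the first complement component, fell by 0.37 on the log2 scale, a call that DESeq2 did not make. C5ar1 was at 134 and 104 against 390.5 and 400.2 CPM.

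MHC class II genes fell. Of 7 tested, 6 were lower in PRMT1Cx3cr1-KO members and none was higher, against 3.57% of all genes lower, and the median log2 fold change was -1.99. Cd74 was at 237 and 241 CPM in PRMT1FL members and at 57.0 and 27.1 CPM in PRMT1Cx3cr1-KO members (log2 fold change -2.48, SE 0.19, adjusted p = 1.72e-07, edgeR). H2-Aa was at 42.1 and 29.6 against 1.77 and 2.13 CPM (log2 fold change -4.19, SE 0.36, adjusted p = 6.56e-07, edgeR), which in the knockout mice is 4 UMIs each. The level in PRMT1FL mouse 2 depended on the marker clause: in members chosen by P2ry12 and Tmem119 alone it was 6.98 CPM, with a log2 fold change of -3.84. H2-DMa, which loads peptide, did not pass, at 222 and 268 against 242 and 218 CPM. DESeq2 called 3 of the 6, Cd74, H2-Aa and H2-Eb1, and not H2-Ab1, H2-Oa or H2-DMb1. The call of H2-Ab1 was also lost without PRMT1FL mouse 1 and in members chosen by P2ry12 and Tmem119 alone, that of H2-DMb1 without PRMT1FL mouse 2 and in members of 3000 to 10000 UMIs, and both without PRMT1Cx3cr1-KO mouse 2. Of 15 MHC class I genes 2 were lower, B2m and Psmb9, and neither kept its call in members of 3000 to 10000 UMIs.

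Homeostatic genes outside the rule changed in both directions. Of 29 tested, 5 were higher and 9 lower in PRMT1Cx3cr1-KO members, and 15 did not pass, against 4.33% of all genes higher and 3.57% lower, with a median log2 fold change of 0.05. DESeq2 did not call 6 of the 14, Fcrls, Bin1, Olfml3, Slc2a5, Rtn4rl1 and Rnase4. Cx3cr1, the fractalkine receptor, was at 3820.5 and 3962 CPM in PRMT1FL members and at 1974 and 1949 CPM in PRMT1Cx3cr1-KO members (log2 fold change -0.997, SE 0.10, adjusted p = 2.85e-06, edgeR). The recombinase occupies a Cx3cr1 locus in the knockout mice only, so the loss of PRMT1 and the inserted allele cannot be told apart here. Cst3, the most abundant gene of the list, was at 37815 and 43346 against 26824 and 26152 CPM. Upk1b and Sparc fell by 1.17 and 0.63 on the log2 scale. Crybb1 rose by 0.63. Sall1 was at 225 and 215 against 229.7 and 236 CPM (adjusted p = 0.752, edgeR).

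Siglech was the marker of the rule that differed most. Its level in members was 1239 and 1281 CPM in PRMT1FL mice, against 457 and 252 CPM in PRMT1Cx3cr1-KO mice, whereas P2ry12 was at 1996 and 2205 against 2689 and 2877 CPM and Tmem119 at 1293 and 1414 against 1169 and 1116 CPM. These 3 values per cell were part of the choice, so no test is given for them. When members were instead chosen by P2ry12 and Tmem119 alone, Siglech (ENSMUSG00000051504; mm10, chromosome 7, 55768178 to 55778925) was free to vary. It was at 1249.9 and 1302 CPM in PRMT1FL mice, against 435 and 237 CPM in PRMT1Cx3cr1-KO mice. The log2 fold change was -1.92 (SE 0.18, adjusted p = 3.57e-06, edgeR), where 8.08% of 9774 genes were called, 4.51% higher and 3.57% lower.

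Cell by cell, 93.0% and 94.6% of PRMT1FL members and 49.9% and 39.3% of PRMT1Cx3cr1-KO members had a Siglech UMI. At an equal depth of 1500 UMIs, which left out 55 and 61 members of PRMT1FL mice and 130 and 119 of PRMT1Cx3cr1-KO mice, the shares were 81.1% and 81.9% against 38.1% and 25.8%. Cells rich in astrocyte genes, which should lack Siglech, had a UMI at that depth in 3.13% and 6.41% in the PRMT1FL mice, and there were only 15 and 8 such cells in the knockout mice. Their median depths of 3405 and 3264 UMIs were near those of the members. Tnfaip2 had a UMI in 6.29% and 4.64% against 32.3% and 41.5% of members, and Tnf in 15.5% and 15.3% against 37.2% and 26.6%. In the astrocyte-rich cells Tnfaip2 had a UMI in 3.13% and 2.56% of 96 and 78 cells of PRMT1FL mice and in none of the 15 and 8 cells of the knockout mice, and Tnf in 1.04% and 3.85%, against 6.67% and 0%. The Tnfaip2 share of PRMT1FL members was thus low but above this background in both mice. The background rests on few cells with a UMI, and the difference was not tested. Cells rich in neutrophil genes, which were found almost entirely in PRMT1FL mice, had a Tnfaip2 UMI in 40% and 51.3% of 20 and 39 cells.

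**Figure D3:**
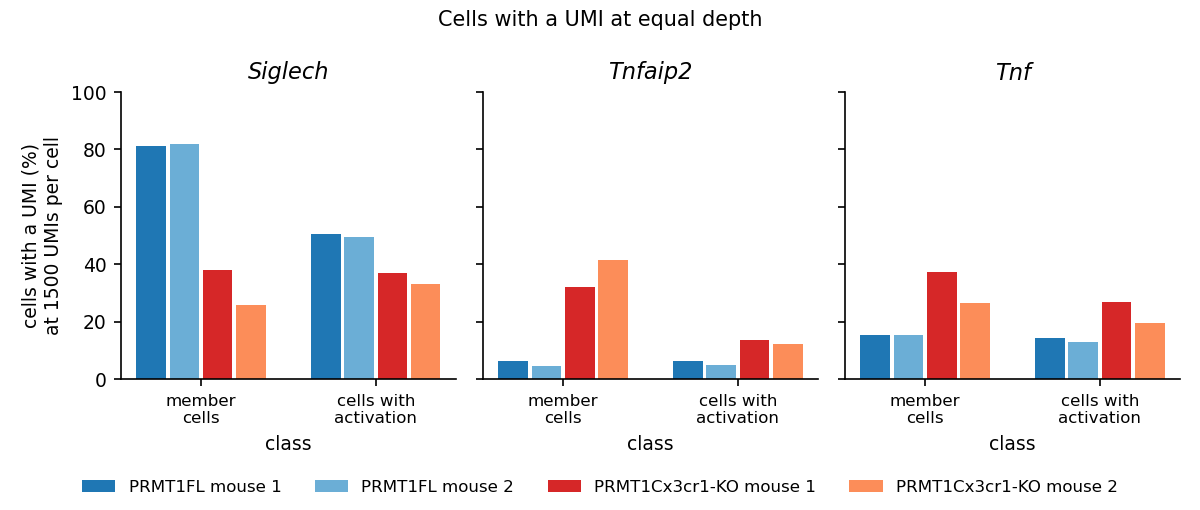
Share of cells with at least 1 UMI of 3 genes (vertical axis, %) after each cell was thinned to 1500 UMIs, in member cells and in marker-positive cells with activation transcripts, 1 bar per mouse. Siglech falls from about 81% to 38.1% and 25.8% of members between genotypes, and the Tnfaip2 and Tnf shares are higher in both knockout mice. Siglech is a gene of the rule and is shown as a description.

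Among 19 immediate early genes, 4 were higher, 3 lower and 12 did not pass, against 4.33% of all genes higher and 3.57% lower. Fos, Fosb and Ier2 lost their calls in DESeq2, in members of 3000 to 10000 UMIs and without PRMT1FL mouse 2. Dusp1 rose by log2 0.84, while Klf2 fell from 1761 and 1772 to 1088 and 631 CPM (log2 fold change -1.04, SE 0.17, adjusted p = 0.000653, edgeR) and Rhob fell by 0.60 on the log2 scale. Klf2 lost its call in DESeq2. Of 21 interferon genes Isg15 and Cxcl10 were higher and Oasl2 and Ifitm3 lower, and DESeq2 called none of these 4, which had adjusted p under 0.05 in edgeR. Of 20 lineage and TGF-β genes, Tcf4 and Bhlhe41 were higher and Smad7, the inhibitory Smad, lower, and all 3 calls were lost without PRMT1FL mouse 2, without PRMT1Cx3cr1-KO mouse 2 and in DESeq2. Prmt1 was the gene called among 8 arginine methyltransferases. Of the 13 genes of the cytochrome c oxidase list Cox6a2 was called, at 19.3 and 24.2 against 52.1 and 37.8 CPM, a call that DESeq2 did not make.

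The 10 largest rises outside the rule were Cfp, Gm44751, Pla2g7, Ptgds, Il18bp, Treml4, A530064D06Rik, Pltp, Cxcl2 and Tnfaip2. Pla2g7, a phospholipase that inactivates platelet-activating factor, was at 1.57 and 12.3 CPM in PRMT1FL members and at 97.2 and 136 CPM in PRMT1Cx3cr1-KO members (log2 fold change 4.06, SE 0.32, adjusted p = 2.86e-07, edgeR). Il18bp, which binds and blocks interleukin 18, was at 2.75 and 2.05 against 29.6 and 45.8 CPM (log2 fold change 3.91, SE 0.34, adjusted p = 7.26e-07, edgeR). Cfp, the complement factor properdin, rested on 2 UMIs in PRMT1FL and 43 in PRMT1Cx3cr1-KO members, a ratio of 25.8 with an exact 95% counting interval of 6.73 to 220.02. Ptgds, prostaglandin D synthase, was uneven, at 4.33 and 0.411 against 11.5 and 69.2 CPM, and DESeq2 did not call it. Its log2 fold change moved from 3.96 to 2.25 without PRMT1Cx3cr1-KO mouse 2 and to 6.36 without PRMT1FL mouse 1. In the activated class Ptgds was at 4.69 and 1.53 against 0.834 and 0.295 CPM.

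Among the 10 largest falls were H2-Aa, H2-Eb1, Gm26542, Gpm6b, Gm32849, Mmachc, Cd74, Gm13889 and C130013H08Rik. Of these, Gpm6b, Gm32849, Mmachc and C130013H08Rik lost their calls in DESeq2. Gpm6b, a membrane glycoprotein of glia and neurons, was at 4.33 and 24.6 against 3.09 and 1.06 CPM and had too few counts to be tested without PRMT1FL mouse 2. Aldoc, an astrocyte enzyme, was likewise highest in PRMT1FL mouse 2, at 4.72 and 19.7 against 3.09 and 2.13 CPM. PRMT1FL mouse 2 also held the highest astrocyte and oligodendrocyte sums, and their part in these 2 genes was not tested. Mmachc rested on 22 UMIs against 3, a ratio of 6.11 with an exact 95% counting interval of 1.83 to 31.9.

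**Figure D4:**
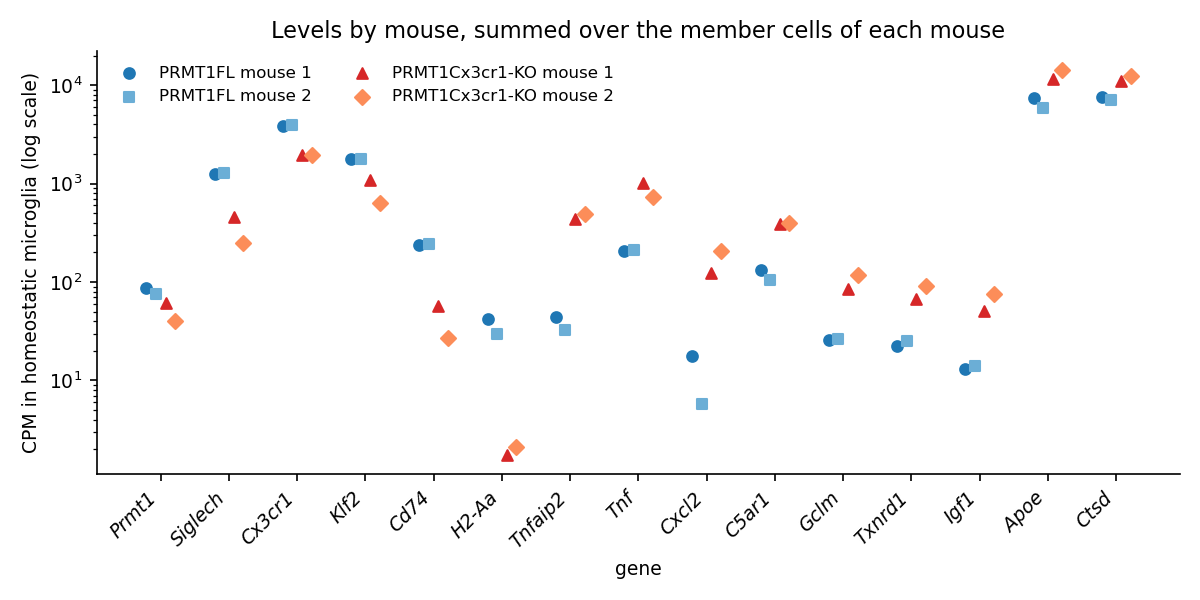
CPM of 15 genes in the summed member cells of each mouse (vertical axis, log scale), 1 symbol per mouse. Siglech, Cx3cr1, Klf2, Cd74 and H2-Aa are lower and the inflammatory, stress and activation genes higher in each PRMT1Cx3cr1-KO mouse than in either PRMT1FL mouse.

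The same comparison in the activated class, from the same mice, called 80 of 13532 genes (0.591%), 0.429% higher and 0.163% lower. Its summed UMIs were 67223141, 59352349, 64710501 and 81376003, far above those of the members. The difference between the classes was therefore tested directly, with the mouse as a block. Of 13790 genes, 445 (3.23%) had a genotype difference that differed between members and activated cells in edgeR, 297 of them more positive and 148 more negative in the members. The count was 186 among cells of 3000 to 10000 UMIs and 806 without PRMT1Cx3cr1-KO mouse 1.

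Tnfsf9, the ligand of the costimulatory receptor 4-1BB, had the smallest p among the positive differences. It was at 14.6 and 17.7 CPM in PRMT1FL members and at 191 and 147 CPM in PRMT1Cx3cr1-KO members, and at 104 and 120.2 against 147 and 113 CPM in activated cells. The difference of the log2 fold changes was 3.25 (SE 0.14, adjusted p = 1.05e-10, edgeR). Tnfaip2 was at 69.4 and 49.1 against 139.7 and 111 CPM in activated cells, a difference of 2.60 (SE 0.16, adjusted p = 1.12e-08, edgeR). The change was also more positive in members for Tnf, Ctsd and Creg1, with differences of 1.16, 0.82 and 1.13. For Tnf the activated cells rose as well, from 200.2 and 213 to 476 and 342 CPM, without passing the test there (adjusted p = 0.0775, edgeR).

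In edgeR's test of the difference, 13 of 27 activation genes passed with a positive difference and none with a negative one. For the stress list the counts were 11 of 20 and none, and for the cytokine list 12 of 19 and none. Of all genes, 2.15% passed with a positive difference and 1.07% with a negative one. Apoe was at 32359.5 and 29863 against 32638 and 31339 CPM in activated cells, where it did not pass, and the difference was 0.99 (SE 0.08, adjusted p = 8.83e-07, edgeR). Cox6a2, a muscle-type oxidase subunit, had opposite signs in the classes: it was higher in knockout members and at 424 and 463 against 244 and 147 CPM in activated cells, a difference of 2.30 (SE 0.17, adjusted p = 1.68e-07, edgeR). The level of Cox6a2 in activated cells stayed above that in members in every mouse.

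Among genes outside the rule, Tmcc3, Slc7a8, Arsb, Ang and Lrba had the smallest p of the negative differences. Tmcc3, a transmembrane coiled-coil protein, was at 244 and 301 CPM in PRMT1FL members and 91.0 and 63.3 CPM in PRMT1Cx3cr1-KO members, and at 98.5 and 116 against 98.1 and 91.0 CPM in activated cells. The difference was -1.55 (SE 0.12, adjusted p = 1.68e-07, edgeR). Slc7a8, an amino acid transporter, was at 190.5 and 187 against 96.7 and 78.8 CPM in members and at 104, 109, 109.7 and 105 CPM in activated cells. For both genes the knockout members were at or below the level of activated cells, and the PRMT1FL members were above it. For Cx3cr1 the fall was of like size in both classes (difference -0.11, SE 0.06, adjusted p = 0.434, edgeR), and a p above the threshold does not show that it was equal.

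**Figure D5:**
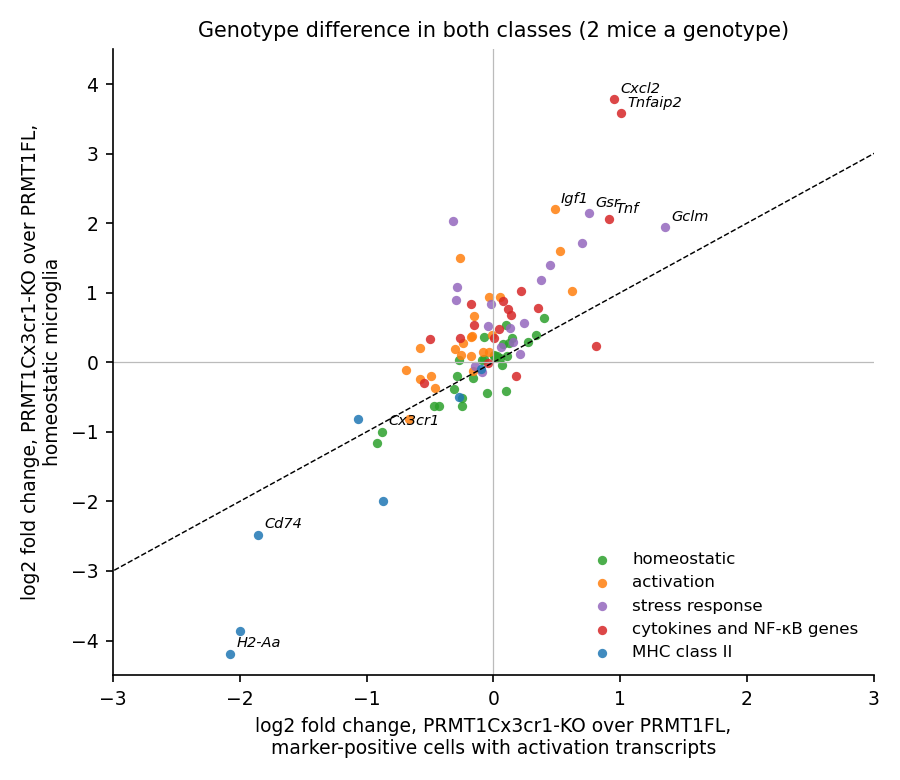
Log2 fold change between genotypes for genes of 5 lists (1 point per gene) in the activated class (horizontal axis) and in the members (vertical axis), with the line of equality dashed. Tnfaip2 and Cxcl2 lie at 3.58 and 3.78 in members and near 1 in the activated class, whereas Cx3cr1 lies near the line.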

How the data were processed

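Counts were deposited by the authors as 1 UMI matrix per library, made with Cell Ranger 3.1.0 on mm10; Seurat 3.2.0 and Scanpy 1.5.2 are also named in the submitters' processing notes. No cell annotation was used. Members were taken by the rule from the raw counts, and members and gene lists were chosen with earlier results of these data known. Scrublet in scanpy 1.11.5 marked 0.8% per 1000 cells as doublets, since its automatic threshold marked almost none. Marked cells stayed in.

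UMIs were summed per mouse and class, filtered (filterByExpr), scaled (TMM) and tested with edgeR 4.0.16 in R 4.3.3 (quasi-likelihood, Benjamini-Hochberg, 0.05), with DESeq2 1.42.0 as an alternative. Nothing states more than 1 mouse per library. Genes named were the 10 largest called rises and falls without overlap. The 5 interaction genes outside the rule of smallest p in each direction were also named. So were the 10 extreme ratios of members to other cells, and genes of the lists. Scripts were tested on simulated data. Intervals cover counting error only. Gene positions came from GENCODE, matched for 32158 of 32285 identifiers. Results for some genes are not reported here.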

Additional observations from a re-analysis of the deposited data

Results flagged for a closer look

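The genotype difference differed between members and the activated class for 445 genes in edgeR's interaction test, which is what called for a closer look. More positive in members were Tnfsf9 (difference of log2 fold changes 3.25), Tnfaip2 (2.60), Tnf (1.16), Creg1 (1.13) and Ctsd (0.82). More negative were Tmcc3 (-1.55), Arsb (-1.07), Slc7a8 (-1.04), Lrba (-0.83) and Ang (-0.80).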

How the results depend on the processing

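The genotype differences of the 86 named genes called and the homeostatic and activation list ratios kept their direction under the alternatives run, wherever a gene had enough counts to be tested. The astrocyte list cannot be read in this way, since the genes with enough counts changed with the setting. At equal depth 4 genes had enough counts, 1 higher and 3 lower in all 4 mice, with a median log2 ratio of -2.002. Only 1 gene had enough counts without depth standardisation, after thinning and against the activated class, at 1.37, 1.20 and 0.74. In cells of 3000 to 10000 UMIs 1 of 749 genotype calls and 3 of 445 calls between the classes had the other sign. The genes called between genotypes in members numbered 781, but 223 with DESeq2, 310 in members of 3000 to 10000 UMIs, and 507 to 992 when 1 mouse was left out, with the lowest count without PRMT1FL mouse 2. The genes that differed between the classes numbered 445, but 186 at 3000 to 10000 UMIs and 342 to 806 with 1 mouse left out. Prmt1 kept its sign at -0.68 in DESeq2 (adjusted p = 0.206), -0.66 at 3000 to 10000 UMIs (adjusted p = 0.0780, edgeR) and -1.04 to -0.39 with 1 mouse left out. The median log2 ratio of homeostatic genes was 1.41 without depth standardisation, 1.26 after thinning and 0.56 against the activated class, and that of activation genes -1.36 against the activated class. The causes were not tested.

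Replicate numbers did not pair the mice (r = 0.00926 between deviations of same-numbered mice over 9884 genes). With the replicate block 977 genes were called in members, and 153 between classes in place of the mouse block. The block changed the call of Mmachc alone among the 86 named genes called.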

Other observations

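Cells that missed the rule by a single activation gene differed in which gene it was. Cst7 alone kept out 380 and 270 marker-positive cells in PRMT1FL mice, against 311 and 198 in PRMT1Cx3cr1-KO mice. Lpl alone kept out 205 and 208 against 309 and 418 cells. A single UMI of one activation gene separated 463, 345, 391 and 352 cells from the members.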
